A study of Mus musculus with 2 samples.

Results

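The hypothalamic and optic field factors are 10 genes for transcription factors that pattern the ventral and anterior forebrain: Nkx2-1, Rax, Otp, Sim1, Foxb1, Six3, Six6, Vax1, Vax2 and Foxd1. They were chosen by name, as the rows of the gene tables whose identifier carries one of these symbols in GENCODE M21, and all 10 were found among 43346 mouse genes and 69691 features. The samples are 2 libraries of total RNA from forebrain of healthy B6NCrl mouse embryos at 12.5 days, both sexes pooled, with 120 embryos in replicate 1 and 68 in replicate 2. Each library started from 10 ng of RNA longer than 200 nucleotides, with ERCC spike-ins. The libraries form 1 group, with no treatment, genotype or other tissue to set them against, so no p-value is given. The labels number them as biological replicates, and they do not say whether the pools came from separate litters or dissections.

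The eye field and the hypothalamus arise side by side at the front of the neural plate. Six3, Six6 and Rax act early in the eye field and in the hypothalamic floor, Vax1 and Vax2 mark the optic stalk and the ventral retina, and Foxd1 acts in the retina and in the ventral diencephalon around the optic chiasm. Nkx2-1 specifies the ventral hypothalamus and, in the telencephalon, the medial ganglionic eminence. Foxb1 is needed for the mammillary body. Otp acts with Sim1 and its dimerization partner Arnt2 in the neurons that become the neuroendocrine cells of the paraventricular and supraoptic nuclei.

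In GENCODE M21 on build GRCm38, Nkx2-1 (ENSMUSG00000001496) lies at chr12:56531958-56536908 on the minus strand and Six6 (ENSMUSG00000021099) at chr12:72939892-72944899 on the plus strand. Six3 (ENSMUSG00000038805) lies at chr17:85613608-85629302, plus strand. Otp (ENSMUSG00000021685) lies at chr13:94875602-94885130 and Foxd1 (ENSMUSG00000078302) at chr13:98354242-98359305, both on the plus strand. Sim1 (ENSMUSG00000019913) lies at chr10:50894754-50989152, plus strand, and Foxb1 (ENSMUSG00000059246) at chr9:69757710-69760940, minus strand. Vax1 (ENSMUSG00000006270) lies at chr19:59166187-59170056 on the minus strand, Vax2 (ENSMUSG00000034777) at chr6:83711264-83738313 on the plus strand and Rax (ENSMUSG00000024518) on chromosome 18.

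The libraries held 33711030 expected counts in replicate 1 and 34578499 in replicate 2. An expected count is an estimated number of reads per gene, and TPM is the level per length that the authors deposited with it, as a share of the summed level of all features. The spike-ins took 9.19% of TPM in replicate 1 and 8.25% in replicate 2. The tissue label was checked on forebrain transcription factors. Lhx2 stood at 161 TPM in replicate 1 and 185 in replicate 2, and Pax6 at 90.1 TPM and 91.5 TPM.

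Of the 10 members, 8 reached 1 TPM in both pools, beside 60% of 21474 protein-coding genes. Six6 and Vax2 reached it in replicate 2 alone. The median member level was 4.11 TPM, beside a median of 4.60 TPM over all protein-coding genes and 21.6 TPM over those at 1 TPM in both pools. The levels ran from 42.5 ± 16.7 TPM for Nkx2-1 to 0.780 TPM for Six6 and Vax2, which shared the lowest mean (mean ± SD, n = 2 pools). In RNA from whole dissected tissue, fewer cells expressing a gene and less RNA per cell cannot be told apart.

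**Figure D1:**
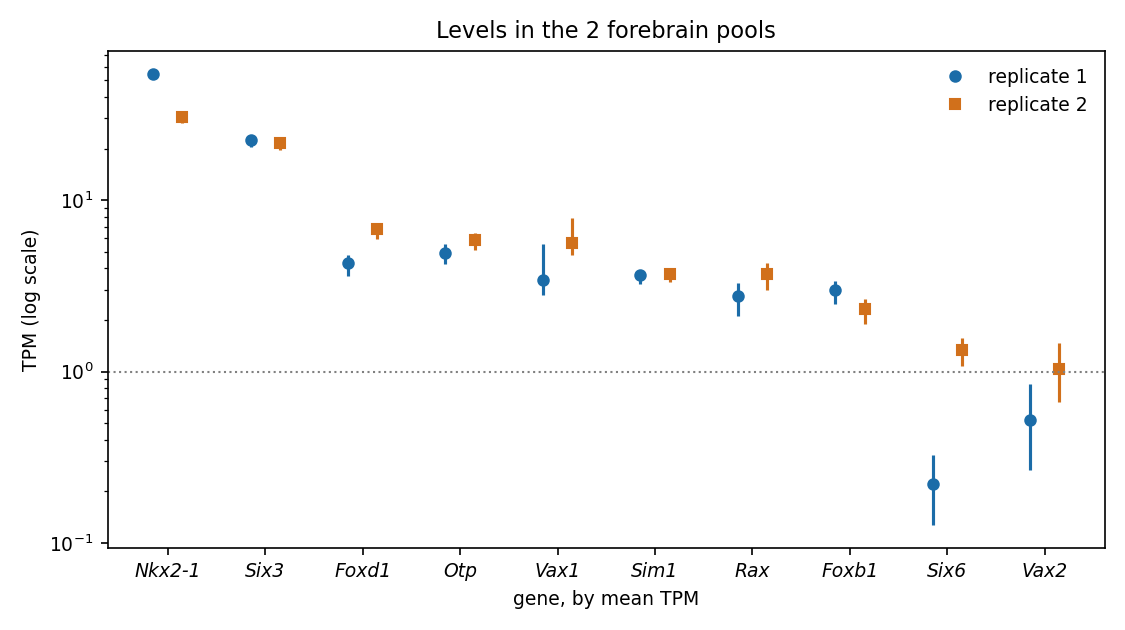
Level of each member in TPM (log axis) in replicate 1 (circles) and replicate 2 (squares), ordered by mean. Vertical bars are the deposited intervals of the posterior mean TPM, whose level no source used here states. The dotted line is 1 TPM. Nkx2-1 and Six3 stand above the others in both pools, and Six6 has intervals that lie far apart between the pools.

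Among the hypothalamic members, Nkx2-1 was the most abundant, with 54.3 TPM in replicate 1 (deposited interval 50.8 to 55.0) and 30.7 TPM in replicate 2 (28.3 to 31.5). It exceeded 75.3% of detected protein-coding genes in replicate 1 and 60.7% in replicate 2. The intervals of the pools do not overlap, and replicate 1 is the high one. Foxb1, the mammillary body factor, had 2.99 TPM in replicate 1 (2.49 to 3.36) and 2.32 TPM in replicate 2 (1.90 to 2.65), with overlapping intervals.

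Otp had 4.93 TPM in replicate 1 (4.25 to 5.53) and 5.85 TPM in replicate 2 (5.14 to 6.48). Sim1 had 3.65 TPM in replicate 1 (3.25 to 3.86) and 3.72 TPM in replicate 2 (3.33 to 3.92), and its SD was 1.34% of its mean, the smallest of the members. Otp stood above Sim1 in both pools, 1.35-fold and 1.57-fold. On the log2(TPM + 1) scale the differences were 0.35 and 0.54, and both exceeded 0.21, the larger change of either gene between pools. Genes are said to differ beyond the pools where they meet this rule, with a difference of the same sign in both pools.

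In the optic group, Six3 led with 22.5 TPM in replicate 1 (20.5 to 23.2) and 21.6 TPM in replicate 2 (19.7 to 22.3). Foxd1 had 4.28 TPM in replicate 1 (3.62 to 4.77) and 6.78 TPM in replicate 2 (5.91 to 7.31). The Six3 intervals overlap widely, while those of Foxd1 are apart, with replicate 2 high. Rax had 2.75 TPM in replicate 1 (2.11 to 3.27) and 3.72 TPM in replicate 2 (3.00 to 4.30), with overlapping intervals. Vax1 had 3.41 TPM in replicate 1 (2.79 to 5.56) and 5.65 TPM in replicate 2 (4.77 to 7.91), and its intervals also overlap.

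The lowest members were both optic. Vax2 had 0.520 TPM in replicate 1 (0.267 to 0.850), from 12 expected counts, and 1.04 TPM in replicate 2 (0.666 to 1.47), from 25. Six6 had 0.220 TPM in replicate 1 (0.127 to 0.327), from 17 expected counts, and 1.34 TPM in replicate 2 (1.08 to 1.56), from 110. A count of 3 would give 0.130 TPM in replicate 1 and 0.125 in replicate 2 for Vax2, and 0.0381 and 0.0366 TPM for Six6, so all 4 values lie above it.

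In the order of mean levels, Nkx2-1, Six3, Foxd1, Otp, Vax1, Sim1, Rax, Foxb1, then Six6 and Vax2 in a tie, 1 of 9 neighbouring pairs differed beyond the pools. That was the step between Six3 and Foxd1, with log2 differences of 2.15 and 1.54 against a spread of 0.56. From Foxd1 to Foxb1 no neighbours differed, so the order within that stretch is not resolved by 2 pools. Nkx2-1 did not differ from Six3 beyond the pools (1.24 and 0.49, spread 0.80). Foxb1 stood above Vax2 beyond the pools (1.39 and 0.70, spread 0.42) but not above Six6 (1.71 and 0.50, spread 0.94).

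The paralogous members stood far apart. Six3 exceeded Six6 102-fold in replicate 1 and 16.1-fold in replicate 2, and Vax1 exceeded Vax2 6.56-fold and 5.43-fold. Both pairs differed beyond the pools. To show how far reads of these pairs can be told apart, the most similar stretch of 100 coding bases of each pair is given, from GENCODE M21 transcripts on GRCm38, with capitals at the bases that differ. In each pair 87 of the 100 bases are identical and 13 differ.
Six3, chr17:85621825-85621924, plus strand: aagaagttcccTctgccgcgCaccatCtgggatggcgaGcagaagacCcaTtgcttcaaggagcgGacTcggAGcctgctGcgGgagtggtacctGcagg
Six6, chr12:72940404-72940503, plus strand: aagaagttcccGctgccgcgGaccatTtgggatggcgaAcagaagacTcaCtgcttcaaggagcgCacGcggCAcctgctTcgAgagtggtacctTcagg
Vax1, chr19:59166762-59168557, minus strand, across an intron: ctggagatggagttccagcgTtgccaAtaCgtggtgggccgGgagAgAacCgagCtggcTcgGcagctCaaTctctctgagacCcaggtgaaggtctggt
Vax2, chr6:83733200-83737552, plus strand, across an intron: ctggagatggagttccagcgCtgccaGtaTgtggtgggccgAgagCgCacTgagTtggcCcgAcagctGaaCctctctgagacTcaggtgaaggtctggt
The longest run of identical bases within these windows was 14 for Six3 and Six6 and 20 for Vax1 and Vax2. No stretch of 50 bases was shared between any 2 members.

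Against other transcripts, at most 1.38% of a member's 50-base stretches were shared with genes other than its antisense neighbours, the highest share being that of Nkx2-1.

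Between the pools, 7 of the 10 members differed beyond counting error, 5 higher in replicate 2 and 2 lower. The measure was the ratio of expected counts, replicate 2 over replicate 1, scaled by the summed counts of mouse genes, with an exact binomial 95% interval, and a gene was called where the interval left out 1. Of 13092 protein-coding genes at a mean of 1 TPM, 36.7% were called by the same rule, 20.6% higher in replicate 2 and 16.1% lower. Of the 8 members at that mean, 6 were called, 4 higher and 2 lower. The interval covers counting error only, and it compares 2 libraries, not conditions.

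Six6 had the highest ratio of all 12912 protein-coding genes with 100 or more summed counts, at 6.29 (95% interval 3.75 to 11.2). With 17 expected counts in replicate 1 and 110 in replicate 2, Six6 passed that filter only through replicate 2. Its rank is therefore description only. Next came Pmel, a melanosome protein of pigment cells, at 5.16 (3.45 to 7.96), from 29 and 154 counts. Vax1 had a ratio of 1.67 (1.22 to 2.31), Foxd1 of 1.60 (1.34 to 1.91) and Rax of 1.37 (1.04 to 1.83). These 4 optic members were all higher in replicate 2, and the 5th to 95th percentile of the protein-coding genes ran from 0.841 to 1.32. Otp, at 1.21 (1.02 to 1.43), was called by a narrow margin, and the call ended with DESeq2 size factors and with TMM scaling, where the ratio was 1.18 under each.

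Nkx2-1 fell to 0.574 of its replicate 1 value in replicate 2 (0.537 to 0.613), the 44th lowest ratio of the 12912 genes. Foxb1 was lower too, at 0.782 (0.621 to 0.982), a call that ended when spike-ins set the scale, where the ratio was 0.855. Sim1, at 1.03 (0.915 to 1.16), and Six3, at 0.983 (0.905 to 1.07), were not called, and neither was Vax2, at 2.02 (0.980 to 4.42). With the spike-in scale, which moved the median log2 ratio of all genes to 0.15, Sim1 (1.13) and Vax2 (2.21) were called as well. The calls of Six6, Vax1, Foxd1, Rax and Nkx2-1 were the same under all 4 scalings tried. Of all 13092 protein-coding genes tested, 57.2% were called higher and 3.16% lower with spike-ins. The shares were 15.9% and 21.2% with DESeq2 factors, and 14.7% and 22.9% with TMM.

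**Figure D2:**
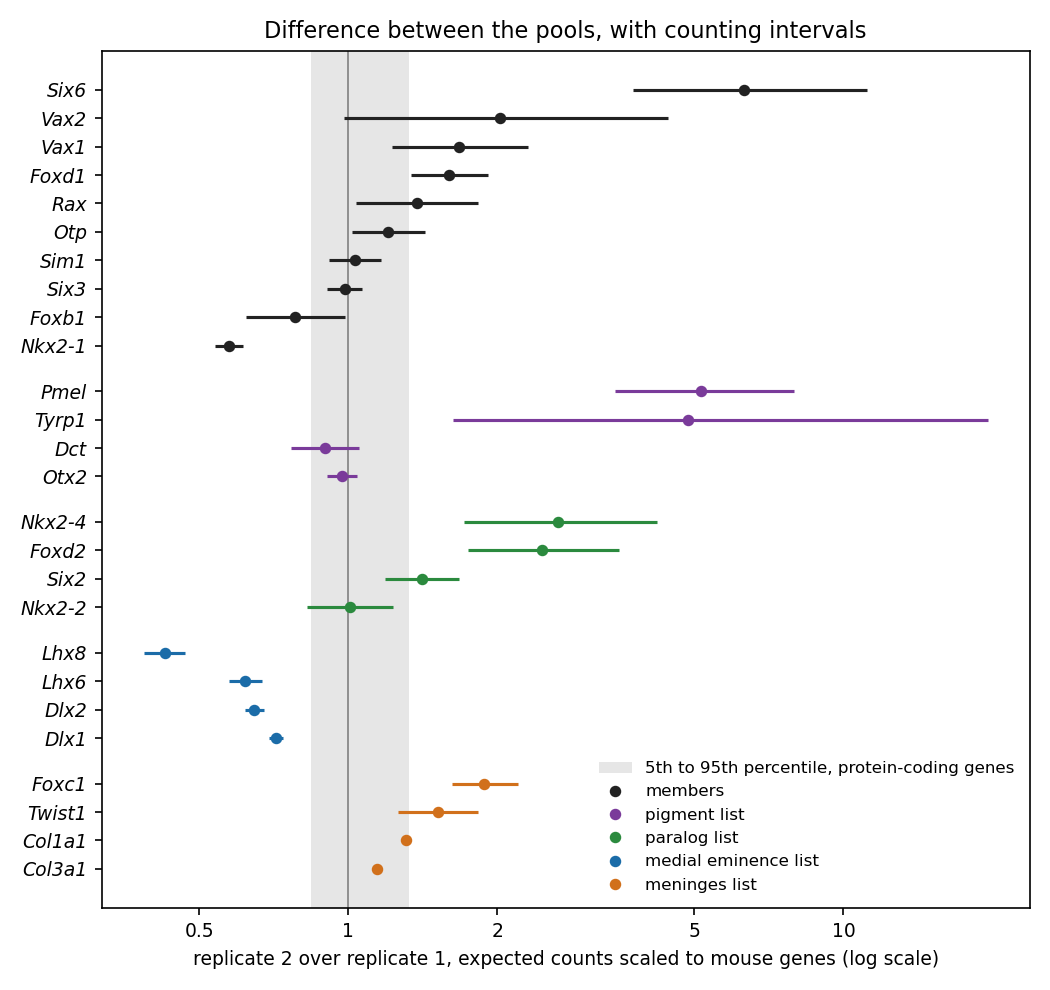
Ratio of expected counts, replicate 2 over replicate 1 (log axis), with exact 95% counting intervals, for the members and for 4 genes of each of 4 lists, picked with their values seen. The grey band is the 5th to 95th percentile of protein-coding genes with 100 or more summed counts, 0.841 to 1.32. Six6 stands furthest to the right of the members, at 6.29, and Nkx2-1 furthest to the left, at 0.574.

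By size alone, 5 members differed by 1.5-fold or more in TPM between the pools, Six6, Vax2, Vax1 and Foxd1 higher in replicate 2 and Nkx2-1 lower. The same size was reached by 4.19% of protein-coding genes at a mean of 1 TPM, and by 3 of the 8 members at that mean. Six6 and Vax2 lie under that mean.

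Genes of other tissues were measured beside these differences, from lists chosen with results of these data known. Pigment epithelium genes were low. Of 9 such genes, Otx2, which also acts widely in the forebrain, and Dct reached 1 TPM in both pools, at 46.8 and 45.1 TPM and at 7.55 and 6.70 TPM in replicates 1 and 2. Pmel had 0.710 TPM in replicate 1 and 3.61 in replicate 2, and Tyrp1 had 0.120 and 0.770 TPM, so both were low in replicate 1 and higher in replicate 2, as Six6 was. Rpe65, the visual cycle enzyme, was at 0 counts in both pools, which allows up to 0.0990 TPM. The summed level of the 9 genes was 56.1 TPM in replicate 1 and 57.4 in replicate 2, most of it from Otx2 in both pools. The part of these cells in the Six6 difference was not tested.

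Retina genes were few at this depth. Of 16, 5 reached 1 TPM in both pools: Rlbp1, a retinoid binding protein, Aldh1a3 and Cyp1b1, which act in retinoid metabolism, Pou4f1 and Tbx3. Crx, Pou4f3 and Prph2 had 0 counts in both pools. The sum was 26.6 TPM in replicate 1 and 27.5 in replicate 2. Vax2 exceeded Tbx5, a dorsal retina factor, 8.67-fold and 10.4-fold, beyond the pools. These folds rest on few counts, since Tbx5 had 0.06 TPM from 5 counts in replicate 1 and 0.10 TPM from 8 in replicate 2. Lens genes were lower still, with 2 of 10 at 1 TPM in both pools, Cryab and Maf, and with Cryaa, Crygd and Lim2 at 0 counts. Their sum was 6.88 TPM in replicate 1 and 8.85 in replicate 2.

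The optic stalk list held 6 genes, of which 5 reached 1 TPM in both pools and Pax2, the stalk's best known marker, did not, at 0.0700 TPM in replicate 1 and 0.150 in replicate 2. Vax1 exceeded Pax2 48.7-fold and 37.7-fold, beyond the pools, with Pax2 at 4 counts in replicate 1 and 10 in replicate 2. Fgf17, a signal of the rostral midline, had the highest mean of the list, with 11.1 TPM in replicate 1, below Ntn1 at 14.8 TPM, and 21.9 in replicate 2, with a ratio of 1.99 (1.75 to 2.26). The sum was 48.7 TPM in replicate 1 and 59.7 in replicate 2.

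Of 11 genes of the pituitary primordium, only Pitx1 reached 1 TPM in both pools, at 1.37 TPM in replicate 1 and 2.33 in replicate 2. Of the others, 6 had 0 counts, Pou1f1, Tshb, Gh and Prl among them, and the sum was 1.67 TPM in replicate 1 and 2.72 in replicate 2. None of 9 thyroid and lung genes, tissues where Nkx2-1 is also expressed, reached 1 TPM in both pools, and Foxe1, Sftpa1, Sftpc and Scgb1a1 had 0 counts. Their sum was 1.17 TPM in replicate 1 and 1.35 in replicate 2, beside 54.3 and 30.7 TPM for Nkx2-1.

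Nkx2-1 was lower in replicate 2 together with genes of the medial ganglionic eminence and preoptic area. Of 13 listed, 11 stood at a mean of 1 TPM or more, and of these 6 were called lower in replicate 2 and 2 higher. The shares over protein-coding genes were 16.1% lower and 20.6% higher. Lhx8 had 45.4 TPM in replicate 1 and 20.6 in replicate 2, a ratio of 0.426 (0.386 to 0.469), and Lhx6, which Nkx2-1 activates in interneuron precursors, had 28.1 and 18 TPM, a ratio of 0.619 (0.574 to 0.668). Dlx1 (ratio 0.714) and Dlx2 (ratio 0.646), which mark all ganglionic eminences, were lower as well. The summed list fell to 383 TPM in replicate 2, against 551 TPM in replicate 1. Dlx1, at 245.9 TPM in replicate 1 and 170.5 in replicate 2, and Dlx2, at 109.3 and 70.8 TPM, were the largest parts of the sums and of the fall. Nkx2-1 exceeded Lhx6 1.93-fold and 1.71-fold (log2 differences 0.93 and 0.74), and their deposited intervals did not overlap in either pool. The rule for a difference beyond the pools was not met. The spread of 0.80 was the change of Nkx2-1 between pools, and Lhx6 fell in the same pool. The share of Nkx2-1 RNA from the eminence and from the hypothalamus cannot be told apart here.

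Genes of meninges and mesenchyme moved the other way. All 10 listed reached 1 TPM in both pools, and 8 were called higher in replicate 2 and 0 lower, beside 20.6% and 16.1% of protein-coding genes. Their median log2 ratio was 0.39, beside 0.02 over protein-coding genes. Foxc1, a meningeal factor, had a ratio of 1.88 (1.62 to 2.20) and Col1a1, a fibrillar collagen, of 1.30 (1.28 to 1.33). The summed level was 917 TPM in replicate 1 and 1068 in replicate 2. Foxd1, which is also known from stromal cells of the kidney, was higher in the same pool, and the part of mesenchyme in its level was not tested.

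The cofactors of the members were broadly present. All 13 reached 1 TPM in both pools and their median was 22.0 TPM. Of these, 3 were called higher and 2 lower in replicate 2, beside 20.6% and 16.1% of protein-coding genes. Aes and the Tle genes, Groucho family corepressors that bind Six3, were led by Aes at 367 TPM in replicate 1 and 378 in replicate 2 and by Tle1 at 56.2 and 52.5 TPM. Sim1 stood below Arnt2 in both pools, 3.65 and 3.72 TPM against 54.9 and 49.1 TPM for Arnt2, a log2 difference of -3.59 and -3.41 beyond the pools.

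Of 15 paralogs of the members, 6 reached 1 TPM in both pools. Nkx2-2, of the ventral neural tube, had 6.35 TPM in replicate 1 and 7.62 in replicate 2, and Six2 had 5.65 and 7.86 TPM. Nkx2-4, the closest relative of Nkx2-1, had 0.880 TPM in replicate 1 and 2.32 in replicate 2, with a ratio of 2.65 (1.71 to 4.2), so it was higher in the pool where Nkx2-1 was lower. Nkx2-1 exceeded it 61.7-fold in replicate 1 and 13.2-fold in replicate 2, and Sim1 exceeded Sim2 2.57-fold and 3.84-fold. Both pairs differed beyond the pools. Foxd2, noted after its values were seen, had a ratio of 2.46 (1.74 to 3.53), and Nkx2-6 had 0 counts.

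Other hypothalamic factors had a higher median than the members. Of 23 listed, 18 reached 1 TPM in both pools, and the median was 18.2 TPM. Of 19 at a mean of 1 TPM, 7 were called higher and 7 lower in replicate 2, beside 20.6% and 16.1% of protein-coding genes. Isl1 had 61.1 TPM in replicate 1 and 54.1 in replicate 2, and Emx2 had 48.6 and 57.2 TPM, and both are also expressed in the telencephalon. In all, 13 of 16 listed pairs differed beyond the pools, and Foxb1 with Foxd1, Six3 with Six3os1 and Nkx2-1 with Lhx6 did not.

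Peptides and the enzyme of hypothalamic neurons were partly present. Of 15 analysed, 7 reached 1 TPM in both pools, led by Sst, Npy and Th, which other forebrain neurons also make. Avp and Oxt, the hormones of the neurons that depend on Otp and Sim1, had 0 counts, which allows up to 0.340 TPM. Of 10 at a mean of 1 TPM, none was called higher in replicate 2 and 3 were called lower. The shares over protein-coding genes were 20.6% and 16.1%. The 3 were Th, Pmch and Gnrh1, the last from 18 counts in replicate 1 and 6 in replicate 2.

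**Figure D3:**
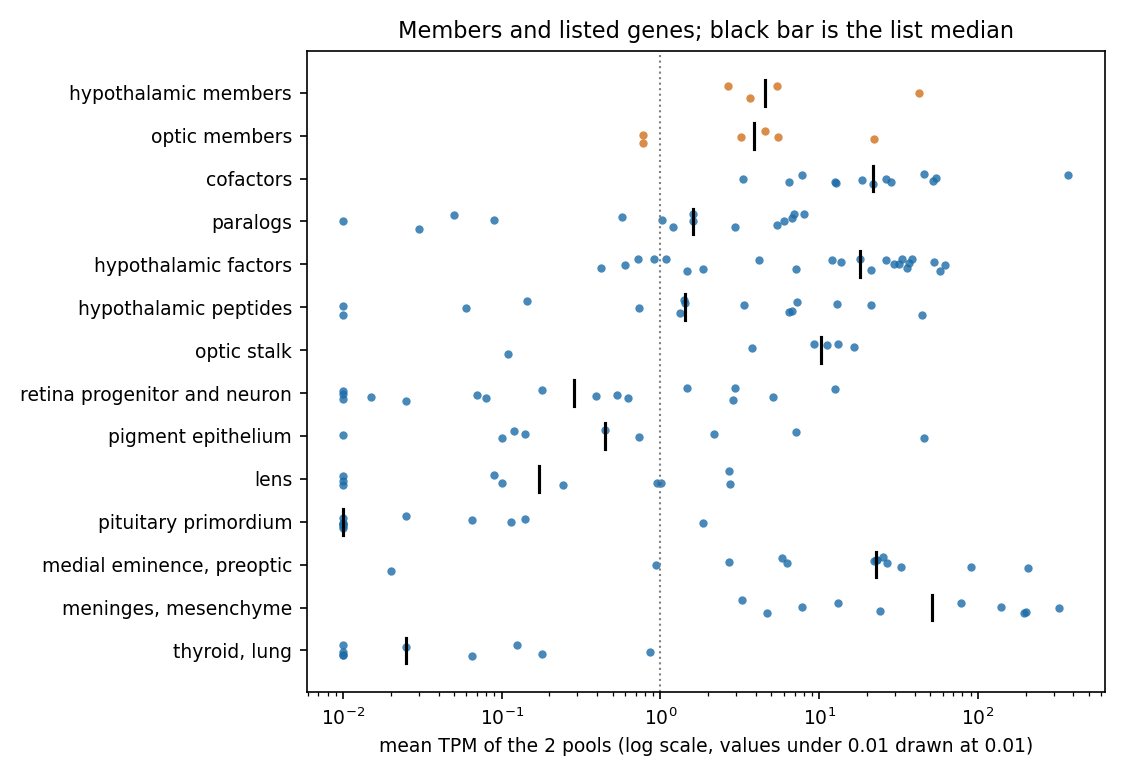
Mean level in TPM of the 2 pools (log axis) of the members and of the genes of 12 lists, with values under 0.01 TPM drawn at 0.01. Black bars are medians over each list and the dotted line is 1 TPM. The lists of pituitary, lens, retina, pigment, thyroid and lung genes have medians under 1 TPM, and those of the medial eminence and of meninges have medians above the members.

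Transcript tables resolved the RNA of the members into 1 to 3 transcripts, and 6 members had 1. Of the transcripts of Nkx2-1, Nkx2-1-202 held 87.3% of the gene's TPM in replicate 1 and 85.7% in replicate 2, and Nkx2-1-201 held 12.7% and 14.3%. The starts of these transcripts lie 1802 bases apart and both encode the same 1116 coding bases. The split rests on 600 exonic bases found only in Nkx2-1-201 and on 33 found only in Nkx2-1-202. Both were lower in replicate 2: Nkx2-1-202 had 47.5 TPM in replicate 1 and 26.3 in replicate 2, and Nkx2-1-201 had 6.88 and 4.38 TPM.

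For Six3, Six3-202 held 83.3% in replicate 1 and 81.0% in replicate 2, Six3-203 held 15.3% and 18.1%, and Six3-201 held 1.39% and 0.960%. The start of Six3-202 lies 7423 bases upstream of that of Six3-201, and it has 106 exonic bases of its own. Six3os1, on the other strand, shares 106 exonic bases with Six3, and these are the same bases. Six3os1 lies wholly upstream of the starts of Six3-203 and Six3-201 and overlaps only Six3-202. The part of Six3os1 in the share of Six3-202 was not tested. Otp-201 held 98.0% and 98.4%, and the noncoding Otp-202 held 2.01% and 1.59%. Vax1-202, a noncoding transcript, was at 0 TPM in both pools.

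**Figure D4:**
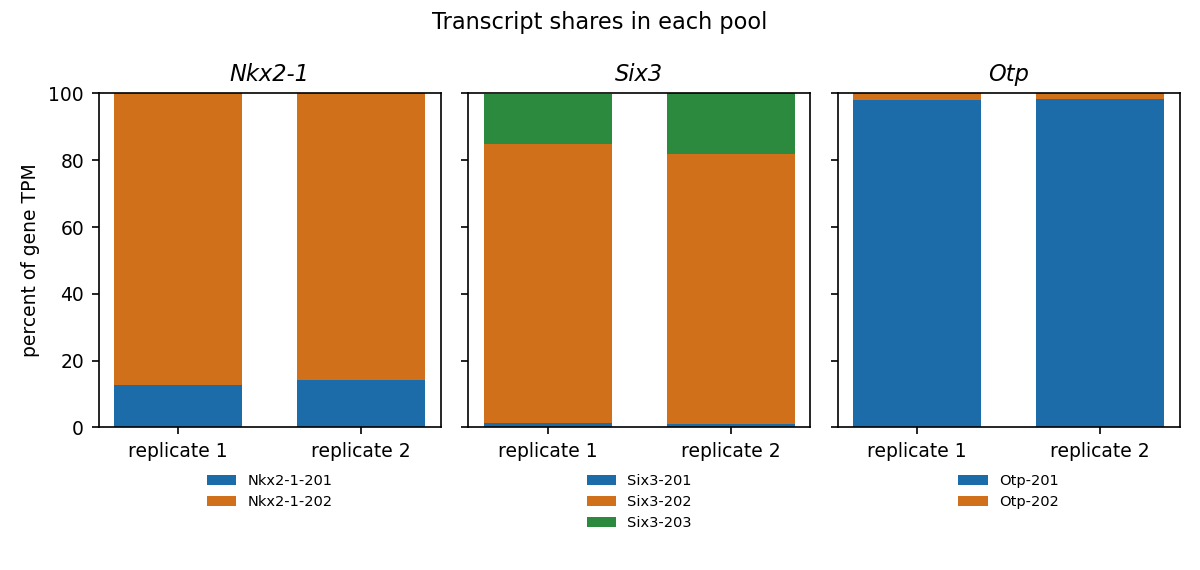
Percent of gene TPM held by each transcript in replicate 1 and replicate 2, for the members with more than 1 transcript above 0 TPM. Nkx2-1-202, Six3-202 and Otp-201 hold over 80% in each pool, and the shares of Nkx2-1-202 are 87.3% and 85.7%.

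For Nkx2-1 and Six3, the transcript with the largest estimated share does not begin at the start that RefSeq gives as the promoter. Their windows are therefore shown, 250 bases before the RefSeq start on GRCm38.p6. The first lies just before Nkx2-1-201 and the second just before Six3-203.
Nkx2-1, chr12:56536909-56537158, minus strand: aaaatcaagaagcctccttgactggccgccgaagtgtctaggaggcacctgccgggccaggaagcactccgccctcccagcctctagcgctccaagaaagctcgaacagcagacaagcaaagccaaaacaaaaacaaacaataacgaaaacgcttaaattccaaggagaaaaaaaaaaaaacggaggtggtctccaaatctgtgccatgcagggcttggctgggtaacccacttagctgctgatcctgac
Six3, chr17:85620584-85620833, plus strand: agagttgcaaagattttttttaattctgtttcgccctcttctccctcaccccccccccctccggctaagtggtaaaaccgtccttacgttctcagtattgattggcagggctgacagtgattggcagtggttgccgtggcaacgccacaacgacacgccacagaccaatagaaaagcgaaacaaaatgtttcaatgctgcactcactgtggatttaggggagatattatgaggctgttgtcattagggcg
Of the 10 members, 7 had a RefSeq window of 300 bases. Their windows held a median of 15 CpG dinucleotides (12 to 20), beside 7 over all 32851 windows, with a median GC content of 53.7% beside 52.7%. Searched on both strands, TAATTA, the homeodomain core, CAAGTG, an Nkx2-1 core, CACGTG, an E-box, and GACCACCCA, a Gli motif, were in none of the 7, and in 5.29%, 13.6%, 7.15% and 0.253% of all windows.

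Antisense neighbours overlapped 6 members, and since no source states whether counting used strand, reads of overlapping exons cannot be told apart. Six3os1 stood at 25.4 TPM in replicate 1 and 29.0 in replicate 2, beside 22.5 and 21.6 TPM for Six3. They share 106 exonic bases, which are all the bases found only in Six3-202. Raxos1, at 0.12 and 0.10 TPM, covers 44.7% of the 50-base stretches of Rax. B230323A14Rik, at 0.920 and 0.490 TPM, covers 12.5% of those of Foxb1, and its ratio of 0.499 (0.271 to 0.890) was lower in replicate 2, as Foxb1 was. Its part in the Foxb1 counts was not tested. The gene opposite Six6, 4930447C04Rik, which RefSeq also names Six6os1, had 1.86 and 2.64 TPM and a ratio of 1.32 (0.913 to 1.92), covering 3.61% of Six6. Gm26973, opposite Nkx2-1 with no shared exonic base, had 3.46 TPM in replicate 1 and 1.56 in replicate 2, and Vax2os had 0 and 0.250 TPM.

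The gene models bear on the levels of some members. That of Rax has 1669 bases, against 5846 exonic bases over all its M21 transcripts. The Foxd1 model in the tables has 2462 bases, against 5064 in M21. The Vax1 model has 1044 bases, of which 30 are noncoding, and its gene-level interval is wider than that of Vax1-201 alone, 2.5 to 4.13 TPM in replicate 1 and 4.46 to 6.50 TPM in replicate 2.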

How the data were processed

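Gene and transcript tables of 2 forebrain libraries were analysed. Per the text deposited with them, they were made on mm10 with GENCODE M4, with column headings of the RSEM program. The aligner and quantifier, the strand setting and the level of the intervals are not given in the sources consulted. The authors deposited expected counts (rounded to whole numbers for tests), TPM, FPKM, posterior mean TPM and counts, the interval bounds as a signal in TPM, and the percent of gene TPM that each transcript holds. Genes were named from GENCODE M21 by identifier; Six6os1 was matched through a RefSeq synonym, and Kiss1 was not analysed here. Intervals and floors of 3 counts cover counting error only, because without molecular identifiers reads may be copies of 1 molecule. Members, lists and pairs were chosen with earlier results of these data known. Named genes are the members, the paired genes, the antisense or overlapping neighbours, the 3 highest of each list, and all genes at 1 TPM in lists of other tissues; Tyrp1 and Foxc1 come from the marker list, and other genes, such as Foxd2 and those at 0 counts, were picked after their values were seen. The counting rule was checked on simulated counts. Alternatives used DESeq2 1.42.0 size factors and edgeR 4.0.16 TMM. Software was matplotlib 3.10.9, pandas 2.3.3, scipy 1.17.1 and numpy 2.4.6 under Python 3.11.15, and R 4.3.3. The planned protein comparison was not run. Some genes of the lists and pairs are counted but not reported by name here.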

Additional observations from a re-analysis of the deposited data

How the results depend on the processing

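No paired analysis was possible because there is 1 group. In FPKM the median member level was 2.48, against 4.11 TPM, since TPM was 1.67 times FPKM in replicate 1 and 1.65 times in replicate 2. Leaving out 1 pool gave a median of 3.53 to 4.69 TPM, 8 to 10 members at 1 TPM, and 104 to 106 genes at 1 TPM over all lists, against 100 with both pools. The order of Foxd1 over Otp turned with posterior mean TPM, to a log2 difference of -0.01 (-0.0127), so their order is not resolved. Six3 and Six3os1 differed beyond the pools with posterior mean TPM, at a log2 difference of -0.34. The number of members called between the pools was 6 with DESeq2 factors and with TMM, 8 with spike-ins and 7 with posterior mean counts. Over all 13092 genes, 4802 were called with the main scale and 7902 with spike-ins, and without the filter on low values 3162 genes passed 1.5-fold, against 548 with it. The rank of Six6 stayed 1 with a minimum of 50 counts and with TPM ratios, both chosen after seeing the data. Its replicate 2 count of 110 passes either minimum alone. Of 347 alternative values, 318 were labelled the same, 22 moved, 3 gained a call, 3 lost one and 1 turned. For counts and ranks, the same meant within 1.5-fold, and for levels within the SD of the pools. For differences it meant the same sign and call, and for pool ratios the same call. Six3, which was not called, thus crossed 1 with spike-ins, at 1.075. A member level from 1 pool always lies within that SD of the mean, so leaving out a pool could not move it. The order and pair rules have no value with 1 pool left out, since 1 pool has no spread. Depth limits Vax2 and Six6 most, with 12 and 17 counts in replicate 1.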

Other observations

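Signals of the ventral and rostral midline surround the fields where the members act, and 13 of 15 listed genes reached 1 TPM in both pools. Sfrp1, Sfrp2 and Gli3 were the highest. Of 13 at a mean of 1 TPM, 6 were called higher and 2 lower in replicate 2, beside 20.6% and 16.1% of protein-coding genes. Shh, the ventralizing ligand, had 3.54 TPM in replicate 1 and 2.36 TPM in replicate 2, a ratio of 0.672 (0.532 to 0.847), and Wnt8b, a signal of the dorsal midline and hypothalamus, had 17.6 and 24.7 TPM, a ratio of 1.42 (1.32 to 1.53). Both were named after their values were seen.

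All 10 telencephalic factors reached 1 TPM in both pools. Of them, 5 were called higher and 3 lower in replicate 2, beside 20.6% and 16.1% of protein-coding genes. Emx1, of the dorsal telencephalon, had a ratio of 1.27 (1.19 to 1.36), and Gsx2 and Dlx5, of the ganglionic eminences, had ratios of 0.582 (0.519 to 0.651) and 0.675 (0.632 to 0.720). Pmch, the peptide of lateral hypothalamic neurons, had 10.1 TPM in replicate 1 and 4.31 TPM in replicate 2, a ratio of 0.431 (0.312 to 0.590). These genes were named after their values were seen. Tfap2d had the third highest ratio of the 12912 genes, at 4.37 (2.73 to 7.29), from 22 expected counts in replicate 1 and 99 in replicate 2.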
